A study of Mus musculus with 4 samples.

Results

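The genes of the interleukin-1 (IL-1) family and of the inflammasome were followed in ribosome footprints of mouse bone-marrow-derived monocytes. The 10 genes are Il1a, Il1b, Il18, Il1rn, Il1rap, Nlrp3, Pycard, Casp1, Casp4 and Gsdmd. They were picked by symbol from the 22417 genes of the count table, with no threshold on any value, but with earlier results of the same comparison known. Their differences between genotypes are therefore given as a description, in which "called" marks a gene whose adjusted p was under 0.05 in the test over all genes, and they are not independent evidence. There were 2 libraries labelled Nat10 cKO, from mice with a conditional knockout of Nat10, a cytidine acetyltransferase that acts on RNA, and 2 labelled WT, from wild-type mice. All 4 came from monocytes that had been driven towards osteoclasts with RANKL for 3 days. The sources used here do not give the driver of the knockout, the deleted exons, the strain or the age of the mice, and whether each library is a different mouse or culture is not stated either, so the error here may be technical only. cKO and WT below stand for the genotype on the label.

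Interleukin-1 alpha and interleukin-1 beta are cytokines that bind one shared receptor on other cells and on the cell that makes them. Interleukin-1 beta and interleukin-18 are made as inactive precursors and are cut by caspase-1, which is switched on inside the inflammasome, a complex of a sensor such as NLRP3 and the adaptor ASC, the product of Pycard. The same protease opens gasdermin D, which forms pores in the membrane. In bone, interleukin-1 is known to promote the formation and activity of osteoclasts together with RANKL.

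The libraries held 1467611 and 1481083 counts in cKO, against 906937 and 3014620 counts in WT. Genes with a count numbered 10508 and 10798 in cKO, against 10637 and 9402 in WT. WT replicate 2 thus had the most counts but the fewest genes with a count, and the reason was not tested. Levels are given as CPM, counts scaled to a common library total (counts per 1e6) after correction by the trimmed mean of M-values (TMM). The WT pair was the less alike: over the 7953 genes tested, the median absolute log2 difference between the libraries of a pair was 0.369 in cKO, against 0.635 in WT. Nat10 counted 101 and 72 in cKO, against 77 and 148 in WT, so the counts over the whole gene do not check the labels. All 8 macrophage markers and all 8 osteoclast markers had counts, 4 and 6 of them lower in cKO without overlap, the osteoclast marker Calcr higher and the others overlapping. Over all genes tested, 22.6% were lower in cKO without overlap and 22.7% higher. The summed macrophage markers stood at 39600 and 35000 CPM in cKO, against 53640 and 68720 CPM in WT, and the summed osteoclast markers at 8519 and 7895 CPM in cKO, against 12510 and 13300 CPM in WT. In such bulk samples, fewer cells of a type and less RNA per cell cannot be told apart, and without matched RNA-seq a difference in footprints may lie in the mRNA level or in its translation.

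Il1a and Il1b were many times higher in both cKO libraries, while the receptor antagonist Il1rn and the receptor chain Il1rap were not called, and Pycard was the only member with a lower mean in cKO. All 10 members passed the filter on low counts. By edgeR, 2 of the 10 were called higher and 0 lower. Over all 7953 genes tested, 1.40% were called, 0.641% higher and 0.754% lower, and nothing is read from the comparison of these shares because the members were chosen on the same contrast. At an unadjusted p under 0.05, 5 members were higher and 1 lower, where 5.63% of all genes were higher and 6.50% lower, and no member was called lower by DESeq2 or limma-voom either. The median log2 fold change (cKO minus WT) of the members was 0.74, against -0.01 over all genes tested. Together the 10 genes took 0.212% and 0.230% of all counts in cKO libraries, against 0.0944% and 0.0872% in the WT libraries. Il1a and Il1b made up 44.4% and 45.5% of these counts in cKO, against 15.5% and 9.93% in WT. Without WT replicate 1, 6 members were called higher and 1 lower, but 15.3% of all genes were then called higher and 12.1% lower. Without WT replicate 2, 4 members were called higher, with 2.94% of all genes higher and 2.55% lower. In both of those fits the spread comes from the cKO pair alone, so the lone WT library is assumed to vary like it.

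**Figure D1:**
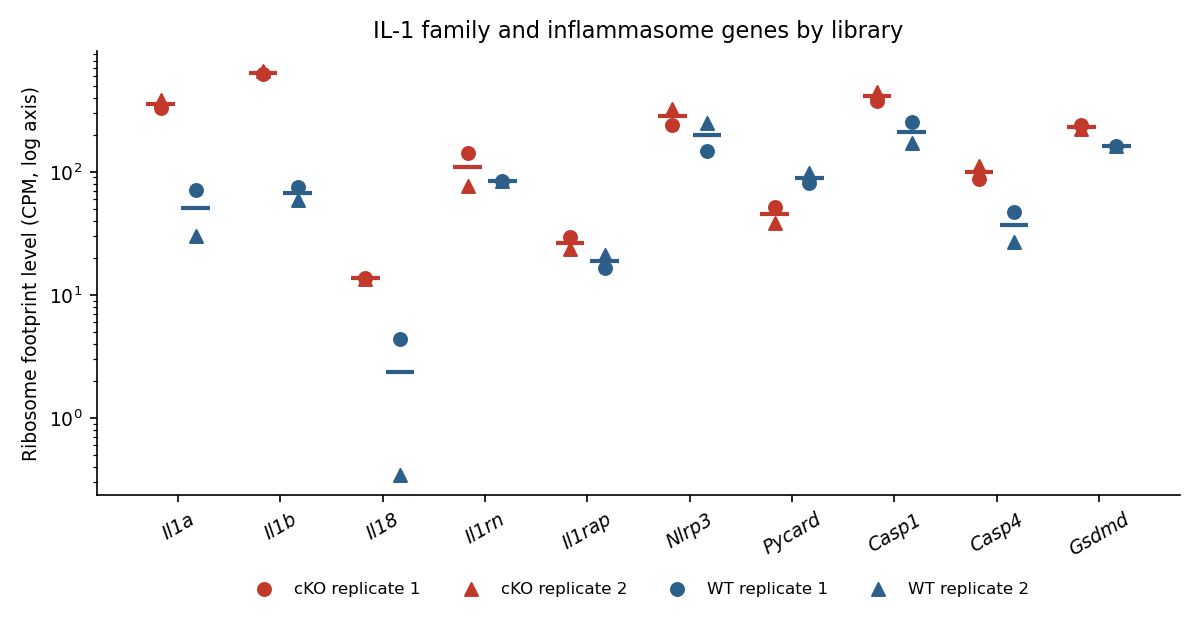
Levels of the 10 genes (CPM, log axis) in each library, with cKO in red left of WT in blue, a circle for replicate 1, a triangle for replicate 2 and a line at the group mean. Il1b stands at 619 and 659 CPM in cKO and at 75.0 and 59.3 CPM in WT, and Pycard is the only gene whose cKO points both lie below its WT points. Heights are not scaled by gene length and are to be compared within a gene only.

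Among the ligands, Il1b, the gene of interleukin-1 beta (ENSMUSG00000027398, chromosome 2, 129206490 to 129213059, on the minus strand of GRCm39), counted 903 and 977 footprints in cKO, against 68 and 173 in WT. These were 619 and 659 CPM in cKO (mean 639 ± 27.7, SD, n = 2), against 75.0 and 59.3 CPM in WT (67.2 ± 11.1, SD, n = 2). The groups lay far apart, and the libraries within each were close. The log2 fold change was 3.27 (standard error, SE, 0.21; 95% interval 2.79 to 3.75), and Il1b was called under all 12 alternative settings, between 3.11 and 3.46. The WT libraries differed in Il1b by 0.335 on the log2 scale, less than in the median gene.

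Il1a, the gene of interleukin-1 alpha, a cytokine whose uncut precursor is already active, lies 54598 bases from Il1b (ENSMUSG00000027399, chromosome 2, 129141530 to 129151892, minus strand). It had 478 and 572 counts, or 328 and 386 CPM, in cKO, against 65 and 88 counts, or 71.7 and 30.2 CPM, in WT. Every cKO value was above every WT value, and WT replicate 2 was the lowest. The fitted difference on the log2 scale was 2.89 (SE 0.39, 95% interval 2.01 to 3.76), a 7.39-fold difference. Its size depended on the WT library used, with a log2 fold change of 3.60 without WT replicate 1 and of 2.33 without WT replicate 2, and it was called in both cases. The WT libraries differed in Il1a by 1.23 on the log2 scale, more than in 73.6% of the genes tested. Within a library, the count of Il1a over that of Il1b was 0.529 and 0.586 in cKO, against 0.956 and 0.509 in WT, so the ratios of the groups overlapped.

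The promoters of both genes are shown because these are the 2 members that were called and they share an orientation and a neighbourhood. The sequences are the 250 bases before the annotated start in RefSeq (build GRCm38.p6, minus strand, chr2:129309973-129310222 for Il1a and chr2:129371140-129371389 for Il1b), written 5′ to 3′. Of the members, 9 had such an entry, 13 promoters in all, and these were searched on both strands for the NF-kappa-B consensus, the AP-1 motif TGANTCA, the interferon response element (GAAA, any 2 bases, GAAA), the PU.1 motif GAGGAAGT and, added after the sequences had been seen, the TATA box TATAAA. Capitals mark the matches.
Il1a: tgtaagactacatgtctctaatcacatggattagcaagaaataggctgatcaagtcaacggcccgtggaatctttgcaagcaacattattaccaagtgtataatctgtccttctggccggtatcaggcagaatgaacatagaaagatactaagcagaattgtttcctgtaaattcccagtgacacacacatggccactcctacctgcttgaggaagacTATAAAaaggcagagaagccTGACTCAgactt
Il1b: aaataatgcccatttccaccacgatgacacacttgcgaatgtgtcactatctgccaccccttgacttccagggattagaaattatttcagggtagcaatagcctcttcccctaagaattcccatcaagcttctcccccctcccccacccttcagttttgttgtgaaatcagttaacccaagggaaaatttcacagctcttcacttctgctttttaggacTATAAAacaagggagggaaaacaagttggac
Both promoters hold TATAAA on the gene's strand, with its first base 32 bases before the start in Il1a and 31 bases before it in Il1b. Among all 32841 promoters of the table searched in the same window, 12.4% hold that motif. Il1a also has an AP-1 match from 12 to 6 bases before the start, a motif found in 6.75% of promoters. No NF-kappa-B, interferon or PU.1 match was present in either window, which says only that those letters are not in these 250 bases.

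Il18, the gene of interleukin-18, a cytokine that drives interferon gamma production by lymphocytes, had few counts (ENSMUSG00000039217, chromosome 9, 50466127 to 50493140, plus strand). There were 20 and 20 counts in cKO, against 4 and 1 in WT, or 13.7 and 13.5 CPM in cKO, against 4.41 and 0.343 CPM in WT. The cKO libraries were alike and both WT libraries were lower, but the fitted log2 fold change of 2.70 had a 95% interval from -0.95 to 6.36 and was not called. Summed over libraries the ratio of cKO to WT was 10.4, with a counting interval from 4.10 to 33.8 (exact binomial, 95%, counting error only). Il18 passed the filter, which asked for about 6.78 CPM in 2 libraries, only through its cKO libraries. Because of that, and because the counting interval leaves out the spread between libraries, the interval is not evidence of a difference. Without WT replicate 1, where a single WT count is left, the log2 fold change was 5.10 and called, and without WT replicate 2 it was 1.62 and not called. Il18 overlaps Bco2 and Tex12, annotated on the opposite strand, which had at most 7 counts in any library, and since the strand setting of the counting is unknown, reads of these genes may be mixed.

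Il1rn, the gene of the receptor antagonist that occupies the interleukin-1 receptor without activating it, overlapped between the genotypes (ENSMUSG00000026981, chromosome 2, 24226865 to 24241506, plus strand). It had 206 and 114 counts in cKO, against 77 and 245 in WT. These were 141 and 76.8 CPM in cKO, against 84.9 and 84.0 CPM in WT, so the WT libraries were almost equal and lay between the cKO libraries. The log2 fold change was 0.37 (SE 0.35, 95% interval -0.44 to 1.17), not called, and it was -0.11 without cKO replicate 1. The count of Il1rn over that of Il1b within a library was 0.228 and 0.117 in cKO, against 1.13 and 1.42 in WT. The ratio of Il1rn over Il1a was 0.431 and 0.199 in cKO, against 1.19 and 2.78 in WT. For both agonists the ratios of the groups did not overlap. Since Il1rn itself overlapped, this restates the differences of Il1b and Il1a and is not a further result. These are ratios of raw counts, with no scaling by length, so they compare libraries and do not say which protein was made in excess.

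**Figure D2:**
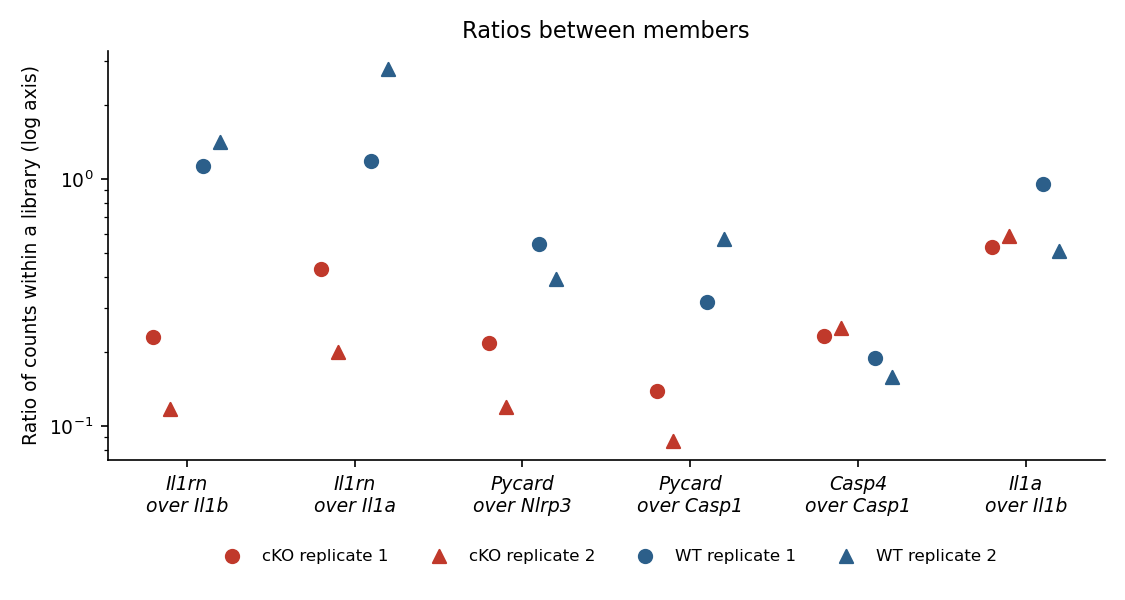
Ratios of counts between pairs of members within each library (log axis), with cKO in red left of WT in blue, a circle for replicate 1 and a triangle for replicate 2. Il1rn over Il1b is 0.228 and 0.117 in cKO, against 1.13 and 1.42 in WT, while Il1a over Il1b overlaps between the groups.

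Il1rap, the gene of the accessory chain that the interleukin-1 receptor needs to signal, had at most 62 counts in any library and was not called (ENSMUSG00000022514, chromosome 16, 26400454 to 26548867, plus strand). It had 43 and 35 counts, or 29.5 and 23.6 CPM, in cKO, against 15 and 62 counts, or 16.5 and 21.3 CPM, in WT. The groups came close without overlapping, and the log2 fold change of 0.48 had a 95% interval from -0.92 to 1.87.

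Of the inflammasome, the sensor and the adaptor differed in opposite directions, neither of them called. Nlrp3, the gene of a sensor that responds to potassium loss and other signs of cell damage (ENSMUSG00000032691, chromosome 11, 59432394 to 59457782, plus strand), had 352 and 476 counts in cKO, against 134 and 726 in WT. These were 241 and 321 CPM in cKO, against 148 and 249 CPM in WT, so the groups overlapped. The fitted difference on the log2 scale was 0.49 (SE 0.29, 95% interval -0.16 to 1.14), and Nlrp3 was called only without WT replicate 2, at 0.94.

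Pycard, the gene of the adaptor ASC that joins the sensor to caspase-1 (ENSMUSG00000030793, chromosome 7, 127588880 to 127593039, minus strand), had 76 and 57 counts in cKO, against 73 and 286 in WT. These were 52.1 and 38.4 CPM in cKO (45.3 ± 9.69, SD, n = 2), against 80.5 and 98.1 CPM in WT (89.3 ± 12.4, SD, n = 2). Both cKO libraries were below both WT libraries, as in 22.6% of all genes tested. The log2 fold change was -0.99 (SE 0.36, 95% interval -1.80 to -0.17), between -1.19 and -0.76 under the 12 alternatives, and it was called only without WT replicate 1. The count of Pycard over that of Nlrp3 was 0.216 and 0.120 in cKO, against 0.545 and 0.394 in WT, and that over Casp1 was 0.138 and 0.0865 in cKO, against 0.319 and 0.573 in WT. Neither ratio overlapped between the groups. Nlrp3 over Casp1 did overlap, at 0.638 and 0.722 in cKO, against 0.585 and 1.455 in WT. Gsdmd over Casp1 was 0.634 and 0.504 in cKO, against 0.646 and 0.942 in WT. How often ratios of other gene pairs separate the groups was not computed, so nothing is read from these ratios. The sum of the macrophage markers was lower in the cKO libraries, carried mainly by Lyz2 and Adgre1, but only 4 of the 8 markers were lower without overlap. The part of these cells in the difference of Pycard was not tested.

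The promoter of Pycard (RefSeq, GRCm38.p6, minus strand, chr7:127993868-127994117) is shown for contrast with those of the ligands, since this was the member with the opposite sign.
Pycard: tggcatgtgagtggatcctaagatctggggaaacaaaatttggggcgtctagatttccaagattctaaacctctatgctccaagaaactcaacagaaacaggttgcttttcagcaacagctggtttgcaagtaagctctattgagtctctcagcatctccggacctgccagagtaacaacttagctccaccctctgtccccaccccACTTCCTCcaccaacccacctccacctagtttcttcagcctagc
It holds the PU.1 motif on the opposite strand, from 44 to 37 bases before the start, and no TATAAA. The PU.1 motif was in 2.44% of all promoters searched. PU.1 is a transcription factor of the myeloid lineage.

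The inflammatory caspases were both higher in cKO in every library pair, without being called. Casp1, the gene of the protease that cuts the precursors of interleukin-1 beta and interleukin-18 (ENSMUSG00000025888, chromosome 9, 5298508 to 5307290, plus strand), had 552 and 659 counts in cKO, against 229 and 499 in WT. These were 379 and 444 CPM in cKO (411 ± 46.4, SD, n = 2), against 253 and 171 CPM in WT (212 ± 57.6, SD, n = 2), with no overlap between the groups. The fitted difference on the log2 scale was 0.97 (SE 0.23, 95% interval 0.43 to 1.50). Casp1 was called under 6 of 12 alternatives, by DESeq2, by limma-voom, with either other filter and without either WT library, where the log2 fold change was 1.30 without WT replicate 1 and 0.72 without WT replicate 2.

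Casp4 lies 1538 bases from Casp1 and encodes the mouse protein also called caspase-11, which binds bacterial lipopolysaccharide in the cytosol (ENSMUSG00000033538, chromosome 9, 5308828 to 5336783, plus strand). It had 128 and 164 counts, or 87.8 and 111 CPM, in cKO, against 43 and 79 counts, or 47.4 and 27.1 CPM, in WT. The groups did not overlap, and the log2 fold change was 1.45 (SE 0.40, 95% interval 0.54 to 2.36). It was called under 3 of 12 alternatives, limma-voom, no filter and without WT replicate 1, where it was 1.91. Within a library, the count of Casp4 over that of Casp1 was 0.232 and 0.249 in cKO, against 0.188 and 0.158 in WT. The neighbour on the far side, Casp12, a further caspase gene of the same cluster, had 0 counts in both cKO libraries and 3 and 0 in WT.

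Casp4 was the member with NF-kappa-B matches in every promoter entry it has. Its 2 entries overlap, and the first is shown (RefSeq, GRCm38.p6, plus strand, chr9:5308599-5308848).
Casp4: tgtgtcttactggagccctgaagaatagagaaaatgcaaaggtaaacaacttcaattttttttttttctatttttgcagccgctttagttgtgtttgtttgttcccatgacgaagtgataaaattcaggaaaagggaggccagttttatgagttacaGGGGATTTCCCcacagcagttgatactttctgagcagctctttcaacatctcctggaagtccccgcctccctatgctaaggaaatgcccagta
The capitals hold 2 overlapping matches on the gene's strand, from 93 to 84 and from 92 to 83 bases before the start. The NF-kappa-B consensus was in 3.90% of all promoters searched. In 1 of its 2 promoters Nlrp3 also had a match, from 186 to 177 bases before the start, on the opposite strand. Il1rn had an AP-1 match in 1 of its 3 promoters, Il18 had a TATAAA on the opposite strand, and the promoters of Casp1 and Il1rap had no match to any of the motifs.

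Gsdmd, the gene of gasdermin D, the pore-forming protein that caspase-1 and caspase-11 cut (ENSMUSG00000022575, chromosome 15, 75734176 to 75739257, plus strand), was slightly higher in cKO. It had 350 and 332 counts, or 240 and 224 CPM (232 ± 11.5, SD, n = 2), in cKO, against 148 and 470 counts, or 163 and 161 CPM (162 ± 1.44, SD, n = 2), in WT. The libraries of each genotype were close and the groups did not overlap. The log2 fold change was 0.52 (SE 0.22, 95% interval 0.02 to 1.01), between 0.49 and 0.59 under the alternatives. It was not called with all libraries and was called without WT replicate 1. In all, 7 members had groups that did not overlap with cKO higher, as 22.7% of all genes tested had, 1 had cKO lower, and Il1rn and Nlrp3 overlapped.

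**Figure D3:**
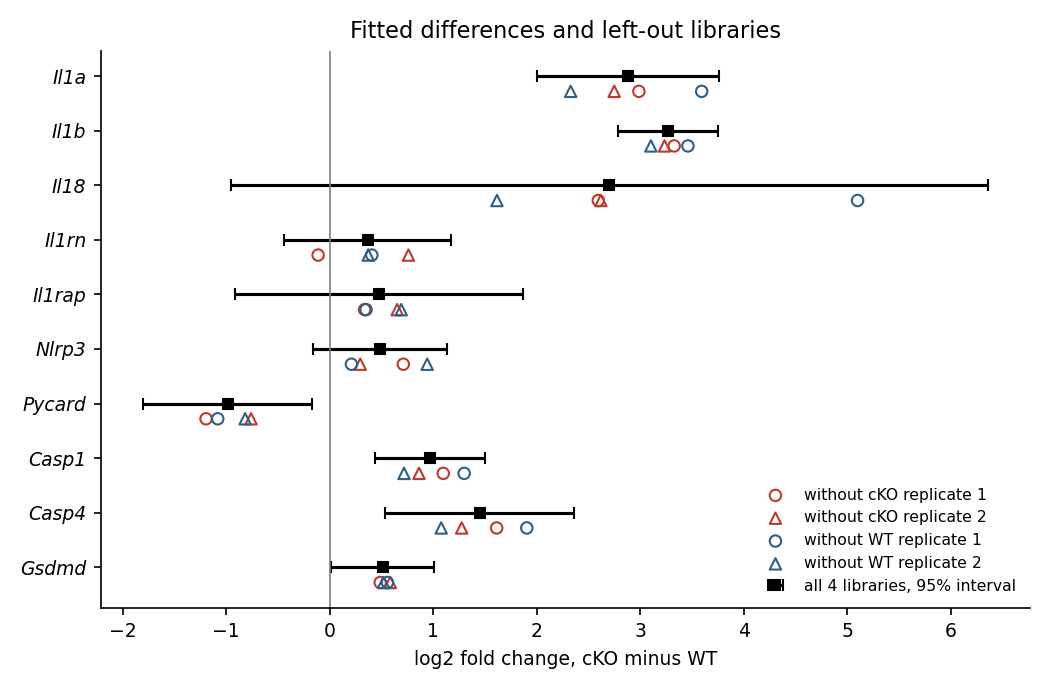
Log2 fold change (cKO minus WT) of each member with all 4 libraries (black square, bar for the 95% interval) and with 1 library left out (open symbols, named in the legend). Il1a and Il1b stay above 2.3 in every fit, Il1rn changes sign without cKO replicate 1, and Il18 spans 1.62 to 5.10.

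Other genes of the pathway, 72 in 6 lists, were read from the same test. Of these, 70 were in the table, 59 had a count and 44 were tested, of which 2 rose, 0 fell and 42 did not pass, against 0.641% and 0.754% of all genes called higher and lower. At an unadjusted p under 0.05, 10 were higher and 1 lower by edgeR, beside 5.63% and 6.50% of all genes, and none was called lower by DESeq2 or limma-voom. Their median log2 fold change was 0.33. Those that rose were Gbp2 and Gbp5, interferon-induced GTPases that act on bacterial membranes and promote inflammasome activity. They belong to a family of similar genes, so their counts are uncertain. Gbp2 stood at 693 and 783 CPM in cKO, against 151 and 108 CPM in WT (log2 fold change 2.53, SE 0.21, adjusted p = 0.00104, edgeR). Gbp5 stood at 356 and 281 CPM in cKO, against 46.3 and 5.14 CPM in WT (log2 fold change 3.90, SE 0.75, adjusted p = 0.0480, edgeR). Gbp5 was not called under 8 of 12 alternatives, among them either cKO library left out (adjusted p = 0.9999 by edgeR in both), no filter (0.620), at least 1 CPM in all libraries (0.289) and DESeq2 (0.0769), and its log2 fold change was 5.97 without WT replicate 1 and 2.79 without WT replicate 2. Without WT replicate 1, 12 of 49 pathway genes were called higher and 4 lower, beside 15.3% and 12.1% of all genes. Without WT replicate 2, 6 of 48 were called higher, beside 2.94% of all genes.

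Of the receptors and decoys, 2 of 9 had enough counts to be tested and neither passed. Il18bp, the gene of a secreted protein that binds and blocks interleukin-18, had 120 and 123 counts in cKO, against 36 and 54 in WT, or 82.3 and 82.9 CPM in cKO, against 39.7 and 18.5 CPM in WT. Its groups did not overlap, and its log2 fold change was 1.56 (SE 0.46, adjusted p = 0.192, edgeR). It was 2.19 without WT replicate 1 and 1.07 without WT replicate 2, and Il18bp was called under 3 of 12 alternatives, without WT replicate 1, with no filter and with limma-voom. Il1r1, the gene of the signalling receptor for interleukin-1, had only 2 and 5 counts in cKO, against 4 and 0 in WT. The decoy receptor gene Il1r2 had 1 and 0 counts in cKO, against 2 and 0 in WT. Il1rl2, the receptor gene of the IL-36 cytokines, had 7 and 19 counts in cKO, against 0 and 94 in WT, so WT replicate 2 stood apart. Of the other ligands of the family, 1 of 6 was tested, the IL-36 gamma gene listed under its older symbol Il1f9, with 13.0 and 31.0 CPM in cKO, against 32.0 and 26.4 CPM in WT. Il1f6, the gene of IL-36 alpha, had at most 19 counts in any library.

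Of 10 tested genes of receptor signalling none passed, with 8 positive and 2 negative log2 fold changes and a median of 0.35. Irak3, the gene of a kinase family member that restrains signalling, stood at 366 and 347 CPM in cKO, against 245 and 248 CPM in WT (log2 fold change 0.53, SE 0.18, adjusted p = 0.275, edgeR). Irak2, the gene of a kinase of the same family that sustains signalling, stood at 87.1 and 68.1 CPM in cKO, against 59.6 and 62.4 CPM in WT. The groups of both genes were close together without overlapping.

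Of 8 tested sensors and adaptors other than Nlrp3 and Pycard none passed, with 7 positive log2 fold changes and a median of 0.63. Naip2, the gene of a receptor for proteins of bacterial secretion systems, stood at 222 and 166 CPM in cKO, against 129 and 106 CPM in WT (log2 fold change 0.73, SE 0.27, adjusted p = 0.315, edgeR). Naip2 shares much of its sequence with the other Naip genes, so its counts are uncertain. Mefv, the gene of the sensor pyrin, stood at 133 and 109 CPM in cKO, against 70.6 and 32.2 CPM in WT (log2 fold change 1.28, SE 0.41, adjusted p = 0.233, edgeR). Both were higher in every cKO library than in any WT library. Of the 17 activators and regulators tested, 11 had positive and 6 negative log2 fold changes, with a median of 0.18. The chaperone gene Hsp90ab1 stood at 1380 and 1367 CPM in cKO, against 1156 and 1061 CPM in WT, and the thioredoxin gene Txn1 at 893 and 1087 CPM in cKO, against 702 and 1106 CPM in WT. Of 6 tested genes of pyroptosis and release none passed, with 2 positive and 4 negative log2 fold changes (median -0.20). Chmp4b, the gene of a membrane repair subunit, stood at 387 and 432 CPM in cKO, against 279 and 352 CPM in WT, and Ninj1, the gene of the protein that ruptures the membrane of dying cells, at 79.6 and 99.8 CPM in cKO, against 84.9 and 100.1 CPM in WT.

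**Figure D4:**
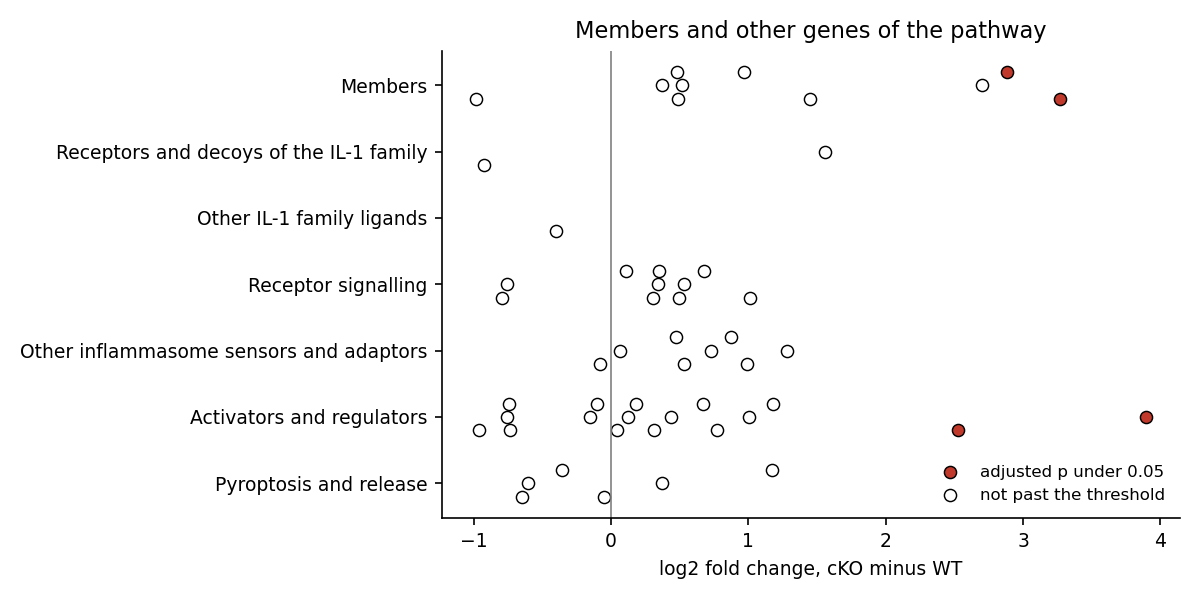
Log2 fold change (cKO minus WT) of each tested gene among the 10 members and in 6 lists of other pathway genes, filled where the adjusted p over all genes was under 0.05. The filled points are Il1a and Il1b among the members and Gbp2 and Gbp5 among activators and regulators, and the remaining lists have none.

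The genes beside the members on the chromosome were read to see whether a whole neighbourhood differed. Il1a and Il1b are neighbours of each other, as are Casp1 and Casp4. Both genes of each pair had higher means in cKO, but only Il1a and Il1b were called. Ckap2l, a mitotic spindle gene 2398 bases from Il1a, had 0 and 1 counts in cKO, against 4 and 44 in WT, the opposite direction, and was too low to be tested. Il1f6, 111151 bases from Il1rn, had 3 and 0 counts in cKO, against 4 and 19 in WT, and was too low to be tested. Psd4, on the other side of Il1rn at 16086 bases, stood at 39.4 ± 2.40 CPM in cKO, against 46.2 ± 15.8 CPM in WT (SD, n = 2 each). Psd4 did not pass the test (adjusted p = 0.907, edgeR), and its groups overlapped. Mprip, beside Nlrp3, also did not pass (adjusted p = 0.910, edgeR). Zkscan17 beside Nlrp3 and Zc3h3 and Mroh6 beside Gsdmd had too few counts to be tested. Trim72 beside Pycard did not pass the filter because its 86 counts were all in WT replicate 2, which stood apart.

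The genes whose pattern over the 4 libraries was nearest to that of Il1b, by Euclidean distance of mean-centred log2 levels among 6055 candidates, were H2-Aa, Cxcl2 and H2-M2. H2-Aa, an MHC class II gene, was at a distance of 0.387, with 180 and 247 CPM in cKO, against 26.5 and 24.7 CPM in WT. Cxcl2, a chemokine gene, was at 0.474, with 625 and 673 CPM in cKO, against 84.9 and 90.2 CPM in WT. H2-M2, a non-classical class I gene, was at 0.482, with 534 and 629 CPM in cKO, against 86.0 and 79.2 CPM in WT. For Nlrp3 the nearest were Ralgds, Dera and Xpo7, at distances from 0.038 to 0.073, all with levels from 24.3 to 56.0 CPM. These are descriptions over 4 libraries, and all genes of a library share its depth and preparation.

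Markers of other cells that a bone marrow culture can hold were summed beside these results, and several sums rest on few genes. Neutrophils are a known source of interleukin-1 beta. Their 10 markers summed to 836 and 785 CPM in cKO, against 1337 and 1523 CPM in WT, mostly S100a8, S100a9 and Ngp. Of these markers 6 were lower in cKO without overlap, 3 overlapped, and Ly6g was at 0 in all libraries. Of the 6, Elane and Mpo had at most 1 count in every library but WT replicate 2, which had 11 and 31. For this and the lists below, 22.6% of all genes tested were lower in cKO without overlap and 22.7% higher. The 7 dendritic cell markers summed to 54.2 and 57.3 CPM in cKO, against 90.4 and 88.8 CPM in WT. Nearly all of that sum was Itgax, with 49.4 and 49.9 CPM in cKO, against 86.0 and 88.8 CPM in WT. Ccr7 went the other way, with 4.80 and 6.07 CPM in cKO, against 2.21 and 0 CPM in WT, while Xcr1 and Cd209a were at 0 and Flt3 and Zbtb46 at no more than 1 count in any library. The 12 stromal and osteoblast markers summed to 620 and 602 CPM in cKO, against 4505 and 5807 CPM in WT. Of these 7 were lower in cKO without overlap, led by collagens, 3 overlapped, and 2, Pdgfrb and Runx2, were higher. The 4 endothelial markers summed to 51.4 and 92.4 CPM in cKO, against 13.2 and 21.6 CPM in WT, and the sum was mostly 1 gene. Kdr had 50.8 and 89.7 CPM in cKO, against 8.82 and 9.26 CPM in WT. Pecam1 went the other way, with 0.686 and 2.70 CPM in cKO, against 4.41 and 12.4 CPM in WT, and Cdh5 and Tek were at 0. The sums of the T and NK cell, B cell and mast cell and basophil lists were at most 18.9 CPM in any library. The part of the neutrophil, dendritic, stromal, endothelial, macrophage and osteoclast markers in the differences of the members was not tested.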

How the data were processed

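The authors deposited raw counts of ribosome footprints per gene as whole numbers, per the file headers, for 2 cKO and 2 WT libraries. Per the submitters' processing notes the build was GRCm39 (mm39) and the tools included HTSeq, STAR, Bowtie and fastp. The sources used here give no versions, strand setting or rule for reads matching several genes. Of the 22417 genes, 12461 had a count. With a count minimum of 10 and a total minimum of 15 in filterByExpr, genes were scaled by TMM and tested by edgeR 4.0.16 (R 4.3.3), a robust quasi-likelihood fit with genotype as the only term, with Benjamini-Hochberg adjustment over 7953 genes at 0.05. SEs come from the fold change and its F statistic. Spreads between libraries and pattern distances used log2 of CPM plus 0.5, and patterns were sought among genes of average log2 CPM of at least 4. DESeq2 1.42.0, limma 3.58.1 and other filters, scalings and subsets were alternatives. Deviations of same-numbered replicates correlated at -0.0162 over the genes tested, so no shared replicate effect was seen. That value cannot show whether same-numbered libraries were prepared together, which is not stated. The members and lists were chosen with earlier results of these data known. Named genes were the members, pathway genes past the threshold and the 2 with the most counts in each list. Neighbours within 200 kb, among them Casp12, and the 3 nearest patterns to Il1b and to Nlrp3 were also named. Il1r1 and Il1r2 were added after their values were seen. Symbols missing from the table were matched through RefSeq synonyms and gene IDs. Members could not be ordered by level because no coding lengths were used here. One neighbouring gene that this rule names is not reported here.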

Additional observations from a re-analysis of the deposited data

How the results depend on the processing

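Il1a and Il1b were called higher under all 12 alternatives, and all members kept their direction except Il1rn, which ranged from -0.11 without cKO replicate 1 to 0.76 without cKO replicate 2. All other members gave a value under 12 alternatives and Il18 under 11, since a filter of at least 1 CPM in all libraries removed it. Over all genes, 51 were higher and 60 lower, and the counts were 184 and 179 with no filter, 95 and 95 with at least 1 CPM in all libraries, 114 and 108 with DESeq2 and 412 and 187 with limma-voom. Without single libraries they ranged from 35 to 1354 higher and from 38 to 1066 lower. Of the members, 4 were called higher with no filter and 4 with limma-voom, against 2, and from 2 to 6 higher and from 0 to 1 lower without single libraries. Of the wider pathway genes, 2 were called higher, against 1 with upper-quartile factors, 1 without robust estimation, 4 with no filter (Gbp2, Il18bp, Mefv and Trim30a) and 6 with limma-voom, and from 1 to 12 higher and from 0 to 4 lower without single libraries. With the replicate number as a block, 67 genes were higher and 76 lower, the same 2 members were called, and 1 pathway gene, Gbp2, was called; Gbp5 missed the threshold (adjusted p = 0.0832). The causes were not tested. The ordering of members per coding length and the length-scaled ratio of Il1rn to Il1b were not run. With 2 libraries a group, and 5 WT counts for Il18, small differences were not detectable.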
